A study of Sus scrofa with 28 samples.

Results

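The genes described here store, release and take up glucose in muscle: PYGM, PGM1, GYS1, UGP2, PRKAG3, PRKAA2 and SLC2A4. They were read from all the array probes to which the platform annotation gives exactly 1 of these 7 symbols. These are 15 probes of 4608, with 8 for PYGM, 2 for UGP2 and 1 for each of the other 5 genes. In all, 509 probes on the array carry a single symbol, for 211 genes. RNA of the semimembranosus, a ham muscle, was hybridised for 14 pigs as grouped in the labels, 7 with normal meat of low L* (a darker meat) and 7 with destructured meat of high L* (a paler meat). Each pig had 1 nylon array of radioactively labelled cDNA, read in a left and a right part that carry the same probes. Breed, age, sex and treatment are not given in the sources used here. One pig number occurs in both groups, for normal replicate 2 and for destructured replicate 3, so the labels hold 13 distinct numbers. The labels do not say whether these 2 arrays come from 1 animal, and they are counted below as separate pigs.

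Muscle keeps glucose as glycogen. Glycogen phosphorylase (PYGM) splits off glucose 1-phosphate and phosphoglucomutase (PGM1) turns it into glucose 6-phosphate for glycolysis, while UGP2 makes UDP-glucose and glycogen synthase (GYS1) adds it to the growing chain. AMPK, the energy sensor of the cell, has a catalytic subunit encoded by PRKAA2 and a regulatory subunit of fast muscle encoded by PRKAG3. SLC2A4 encodes GLUT4, the glucose transporter that insulin and contraction bring to the muscle surface. After slaughter, glycogen breakdown feeds lactate formation, which sets how far the pH of the meat drops, and variants of PRKAG3 are known in pigs for their effect on muscle glycogen and ham yield.

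No probe of these genes passed the test between destructured and normal muscle. In the limma fit over all 4608 probes, 0 of 15 had a Benjamini-Hochberg adjusted p under 0.05, while 0.651% of all probes did. At an unadjusted p under 0.05 stood 0 of 15 members and 13% of all probes. The exact two-sided permutation test over the 14 pigs gave no member a p under 0.05 either, the smallest being 0.0769 for SLC2A4. Log2 fold changes (destructured minus normal) ran from -0.65 for a UGP2 probe to 0.25 for a PYGM probe, with a median of -0.051 against -0.021 over all probes. The sign was positive in 6 members and negative in 9, or 40.0% positive against 46.3% of all probes. The split moved with the scaling. On the deposited scale 11 members were positive, where 81.9% of all probes were and their median was 0.21, and with median centring 8 were. With the median of each table position removed 3 were positive and 12 negative, where 48.3% of all probes were positive. For no member did the 7 destructured pigs lie wholly above or wholly below the 7 normal pigs, which 1.28% of all probes showed. In whole muscle, fewer cells of a type and less RNA per cell cannot be told apart.

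Some facts of the arrays bear on every value below. Intensities are given as log2 after quantile normalization, averaged over the 2 array parts of a pig. The parts of an array correlated over all probes at 0.868 to 0.963 in 13 pigs and at 0.380 in normal replicate 3. Some changes are therefore also given with the right part of that array left out. The correlation does not tell which of its parts is at fault, and leaving out the left part instead was not tried. Of the 13 skeletal muscle markers looked for, 9 were measured, on 125 probes, and their summed deposited intensity was 395 to 1104 in normal and 534 to 900.0 in destructured pigs. Sums for the adipocyte markers FABP4 and PPARG were 7.00 to 25.7 and 12.5 to 19.3, for the immune markers CD74 and CXCL12 5.56 to 11 and 6.45 to 11.3, for the endothelial PECAM1 0.718 to 1.15 and 0.781 to 1.24, and for the matrix genes FN1 and MGP 9.61 to 55.5 and 8.39 to 16.5. None of these marker probes passed the test in limma, no deposited value was 0, and their part in the members' values was not tested. No red blood cell or nerve marker was measured.

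**Figure D1:**
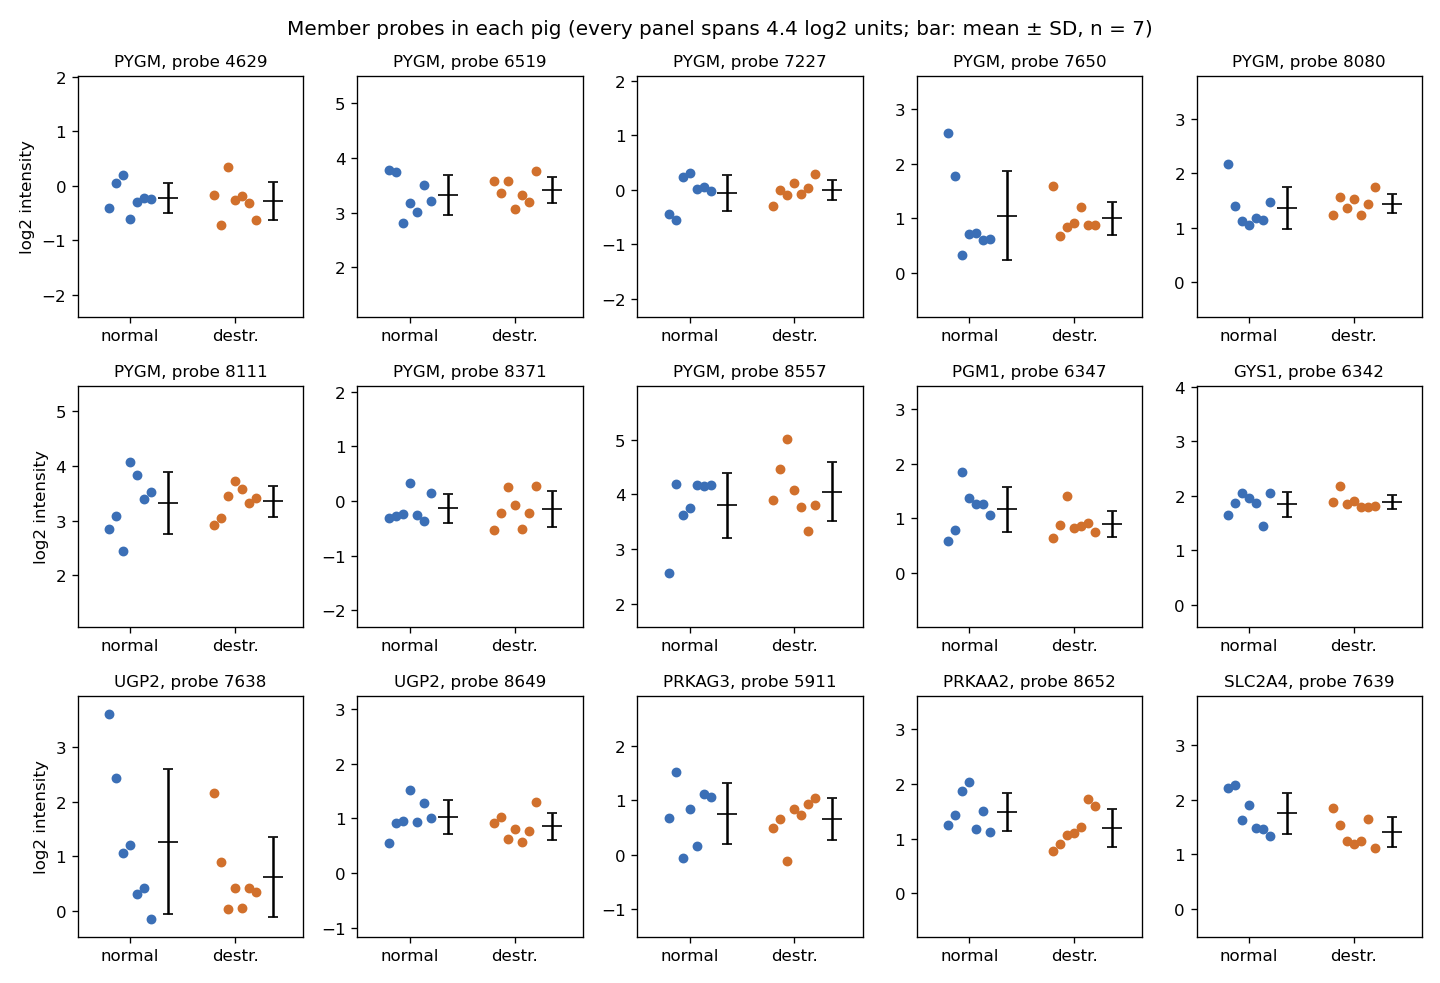
Log2 intensity of each member probe (vertical axis, quantile normalized, every panel to the same span) in the 7 normal and the 7 destructured pigs, with 1 point per pig in order of replicate and the mean ± SD beside it. The groups overlap in all 15 panels, and the normal pigs of UGP2 probe 7638 spread from -0.15 to 3.61.

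The glycogen phosphorylase gene had the most probes, and in none did the groups part. In normal pigs the brightest of its probes, 8557, was at 2.56 at the lowest, 4.15 at the median and 4.195 at the highest. In destructured pigs the same probe was at 3.33, 3.90 and 5.01. Normal replicate 1 alone lay below all destructured pigs and 2 destructured pigs lay above all normal ones. The log2 fold change was 0.25 (SE 0.27, adjusted p = 0.738 by limma), being 0.53 (SE 0.41) in the left part alone and -0.037 (SE 0.24) in the right part alone. Without normal replicate 1 it was 0.044, and without destructured replicate 3, the highest pig, it was 0.092.

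Probe 6519, also listed for PYGM, ran from 2.82 through 3.22 to 3.78 in normal pigs (lowest, median, highest) and from 3.07 through 3.36 to 3.76 in destructured pigs. The destructured range lay inside the normal one. Its log2 fold change was 0.088 (SE 0.16), or -0.033 (SE 0.14) without the right part of normal replicate 3. Probe 8111 ran from 2.45 through 3.41 to 4.08 in normal and from 2.92 through 3.42 to 3.73 in destructured pigs, with a log2 fold change of 0.037 (SE 0.22). Here too every destructured pig lay within the range of the normal pigs, and the median differed by less than the SD of either group (0.57 and 0.29). It was -0.095 (SE 0.17) with that right part left out.

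The other 5 PYGM probes were dimmer. Probe 7650 spanned 0.33 to 2.56 in normal pigs and 0.68 to 1.58 in destructured pigs, with medians of 0.71 and 0.88. Normal replicates 1 and 2, at 2.56 and 1.77, were above every destructured pig and 3 normal pigs were below them all, so the mean difference of -0.051 (SE 0.29) and the difference of medians had opposite signs. It was 0.20 without normal replicate 1 and -0.18 (SE 0.26) with the right part of normal replicate 3 left out. Probe 8080 spanned 1.05 to 2.17 in normal and 1.24 to 1.74 in destructured pigs (log2 fold change 0.080, SE 0.16), and 4 normal pigs lay below the lowest destructured one. Its value was 0.21 without normal replicate 1, the highest pig, and 0.028 without normal replicate 4. Probes 4629, 7227 and 8371 had log2 fold changes of -0.061 (SE 0.17), 0.051 (SE 0.15) and -0.011 (SE 0.16). In all 3 the pigs of both groups lay between -0.73 and 0.34.

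Averaged over its 8 probes, PYGM stood at 1.55 ± 0.115 in normal and 1.60 ± 0.131 in destructured pigs (mean log2 intensity ± SD, n = 7 each). The log2 fold change of that mean was 0.048 (SE 0.11, adjusted p = 0.895 by limma), and its 95% interval, from -0.18 to 0.27, allowed 0.885-fold to 1.21-fold. That interval belongs to the mean of the 8 probes and does not by itself bound the PYGM transcript. Pairs of these probes correlated at a median of -0.085, so the probes did not vary together. Probes 4629, 7227 and 8371 were dim, with normal means of -0.22, -0.056 and -0.14. Of the 8 probes 5 had positive and 3 negative values, with an SD between probes of 0.0995 on the log2 scale. That spread is smaller than the SE of any of them (from 0.15 to 0.29).

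PGM1 links glycogen breakdown to glycolysis. Its probe, 6347, was at 0.59 at the lowest, 1.26 at the median and 1.85 at the highest in normal pigs, and at 0.65, 0.86 and 1.40 in destructured pigs. Of the destructured pigs 6 lay below the normal mean of 1.17, and the exception was destructured replicate 3 at 1.40. The log2 fold change was -0.27 (SE 0.17, adjusted p = 0.527 by limma), with a 95% interval from -0.64 to 0.10. The highest normal pig was replicate 3, and with the right part of its array left out the value was -0.15 (SE 0.14). It was -0.42 (SE 0.21) in the left part alone and -0.11 (SE 0.32) in the right part alone. With position medians removed it was -0.11 (SE 0.14), and on the deposited scale -0.020.

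**Figure D2:**
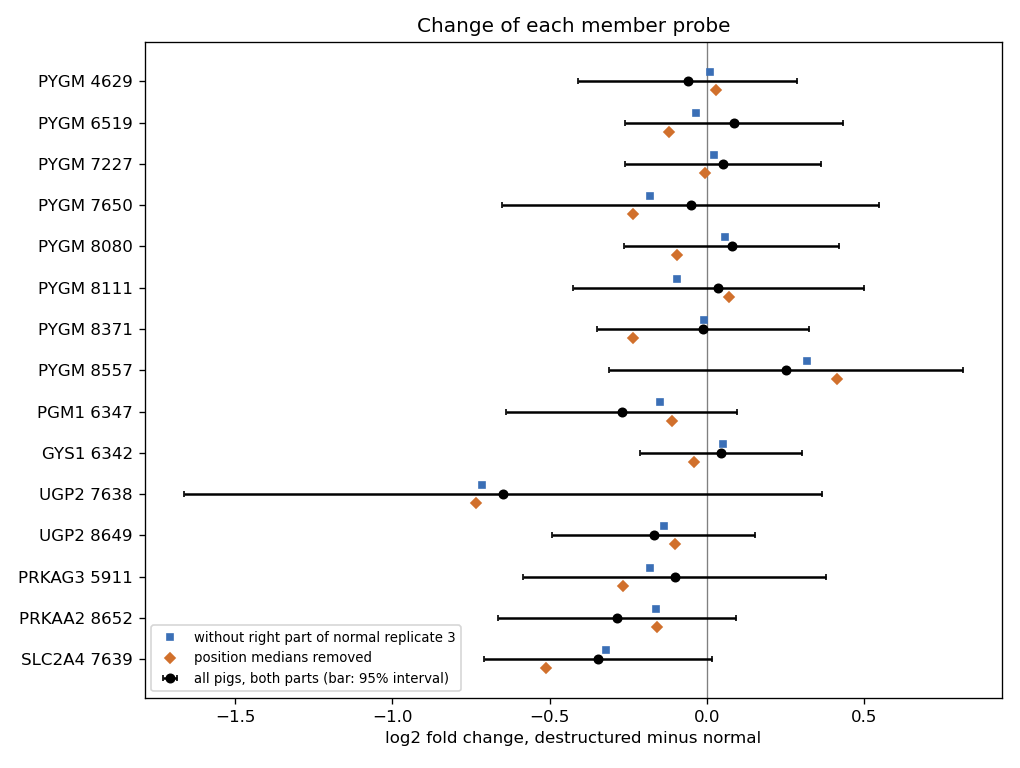
Log2 fold change, destructured minus normal (horizontal axis), of each member probe (vertical axis). Black points with bars are the fit on all pigs with its 95% interval, blue squares leave out one array part, the right one of normal replicate 3, and orange diamonds are after removal of position medians. All 15 intervals include 0, and the nearest to leaving it out is that of SLC2A4, from -0.71 to 0.017.

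On the synthesis side, GYS1 was the least variable member. The probe listed for it, 6342, ran from 1.44 through 1.88 to 2.06 in normal pigs and from 1.80 through 1.84 to 2.17 in destructured pigs. All destructured pigs except replicate 2, at 2.17, lay inside the normal range. The SDs were 0.23 and 0.13. Its log2 fold change of 0.046 (SE 0.12, adjusted p = 0.914 by limma) had a 95% interval from -0.21 to 0.30, the narrowest of any single member probe.

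UGP2 had the most variable member. Probe 7638 was at 3.61, 2.43, 1.07, 1.22, 0.31, 0.42 and -0.15 in normal replicates 1 to 7, and at 2.17, 0.90, 0.042, 0.42, 0.055, 0.43 and 0.36 in destructured replicates 1 to 7. A few pigs carried the signal in both groups (normal replicates 1 and 2 and destructured replicate 1), and the remaining 11 lay between -0.15 and 1.22. The log2 fold change of -0.65 (1.57-fold lower, SE 0.48, adjusted p = 0.586 by limma) was the largest among the members and had the widest interval, from -1.66 to 0.37. It was -0.26 without normal replicate 1, -0.91 without destructured replicate 1 and -1.20 (SE 0.45, adjusted p = 0.306 by limma) with array brightness as a covariate. In normal replicate 1 the deposited intensity was 76.0 in the left part and 5.97 in the right part of the same array, a gap of 3.33 on the normalized log2 scale.

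The second UGP2 probe, 8649, showed none of that spread. It ran from 0.55 through 0.95 to 1.52 in normal pigs and from 0.56 through 0.80 to 1.29 in destructured pigs, with a log2 fold change of -0.17 (SE 0.15, adjusted p = 0.668 by limma). The value was -0.033 in the left part alone, -0.31 in the right part alone and -0.087 without normal replicate 4. Normal replicate 1, the highest pig for probe 7638, was the lowest normal pig here. Over the 14 pigs, after subtracting the group means, the 2 probes listed for UGP2 correlated at -0.27.

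For the AMPK subunits, PRKAA2 probe 8652 was at 1.24, 1.44, 1.87, 2.04, 1.18, 1.51 and 1.12 in normal replicates 1 to 7. In destructured replicates 1 to 7 it was at 0.78, 0.91, 1.06, 1.10, 1.22, 1.72 and 1.59. Of the destructured pigs 4 lay below the lowest normal pig, while destructured replicates 6 and 7 lay above the normal mean of 1.49. The log2 fold change was -0.29 (1.22-fold lower, SE 0.18, adjusted p = 0.514 by limma). Without the right part of normal replicate 3, in which the parts differed by 1.74, it was -0.16 (SE 0.17). It was -0.16 (SE 0.15) with position medians removed and -0.055 with both changes.

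PRKAG3 probe 5911 ran from -0.067 through 0.84 to 1.51 in normal pigs and from -0.11 through 0.73 to 1.04 in destructured pigs. The lowest pigs were normal replicate 3 and destructured replicate 3, and 3 normal pigs exceeded all destructured ones. The log2 fold change was -0.10 (SE 0.23, adjusted p = 0.899 by limma), with a 95% interval from -0.58 to 0.38.

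The glucose transporter gene SLC2A4 came nearest to a difference. Probe 7639 was at 2.22, 2.27, 1.62, 1.90, 1.48, 1.46 and 1.33 in normal replicates 1 to 7. It was at 1.85, 1.55, 1.25, 1.19, 1.25, 1.64 and 1.12 in destructured replicates 1 to 7. Of the destructured pigs 4 lay below the lowest normal pig and 3 normal pigs lay above the highest destructured one. The means of 1.75 ± 0.379 and 1.41 ± 0.274 (mean log2 intensity ± SD, n = 7 each) gave a log2 fold change of -0.35 (1.27-fold lower, SE 0.17), which did not pass (adjusted p = 0.407 by limma; exact two-sided permutation test, p = 0.0769). By p it ranked 681 of 4608 probes. It was -0.36 (SE 0.23) in the left part alone, -0.33 (SE 0.17) in the right part alone and -0.32 (SE 0.17) without the right part of normal replicate 3. With the median of each table position removed it was -0.51 (SE 0.16, adjusted p = 0.237 by limma).

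In 13 of 15 member probes (86.7%) the SD was smaller among destructured than among normal pigs, as it was in 74.0% of all probes. With that one array part (right, normal replicate 3) left out, the count was again 13, against 60.9% of all probes, and without normal replicate 1 it was 10 (66.7%), against 69.7%. The difference from the share over all probes was not tested. The exceptions in the full data were PYGM probes 4629 and 8371.

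Both array parts measured one RNA sample with one set of probes. Their correlation over pigs depends on how much the pigs differ as well as on the measurement. Over the 14 pigs, with group means subtracted, left and right values of a member correlated at a median of 0.30, against 0.15 over all probes. The highest correlation was that of UGP2 probe 7638 (0.73), followed by PYGM probe 7650 (0.54), PYGM probe 4629 (0.46) and SLC2A4 (0.41). PGM1 (-0.23), UGP2 probe 8649 (-0.13), PRKAA2 (-0.043) and GYS1 (-0.010) were below 0, so pigs high in one part were not high in the other. Without normal replicate 3, PRKAA2 was at 0.34 and PYGM probe 6519 moved from 0.16 to 0.59, while PGM1 and GYS1 were at -0.096 and 0.018. The median size of the left minus right difference ran from 0.12 for PYGM probe 7650 to 0.64 for PYGM probe 8557 on the log2 scale. It was 0.24 for GYS1 and 0.49 for UGP2 probe 7638, so a high correlation did not go with a small difference there.

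**Figure D3:**
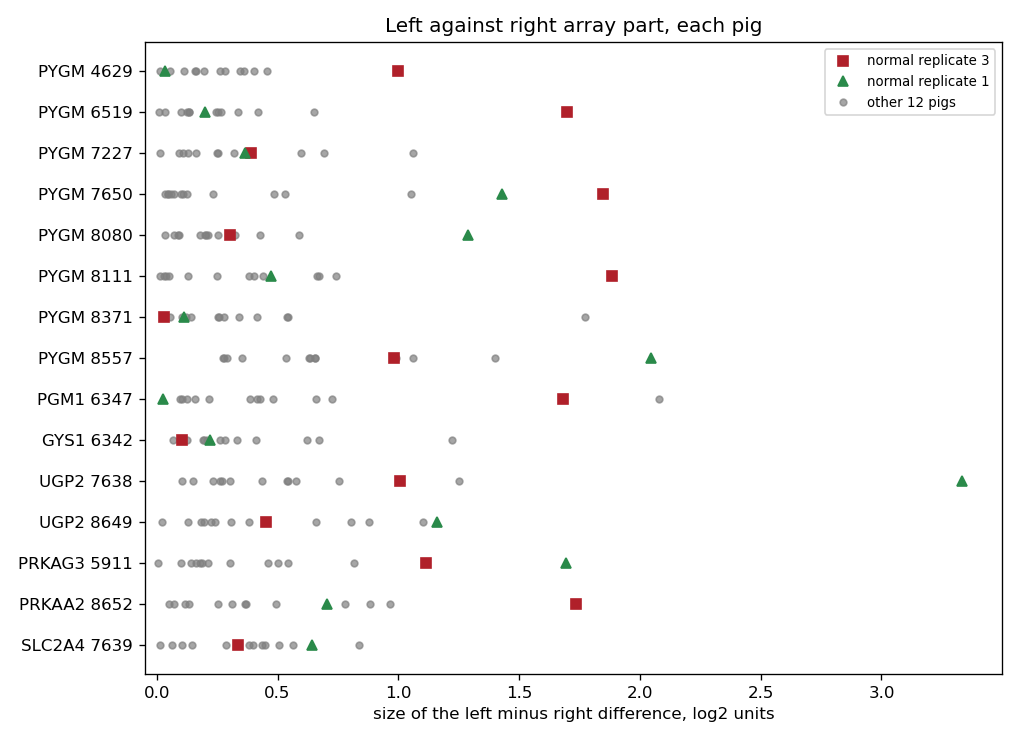
Size of the left minus right difference in log2 intensity (horizontal axis) for each member probe (vertical axis), with 1 mark per pig. Normal replicate 3 (red squares) has the largest difference for 5 of 15 probes. Normal replicate 1 (green triangles) has it for PYGM probes 8080 and 8557, UGP2 probes 7638 and 8649 and PRKAG3, reaching 3.33 for probe 7638.

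Probes listed for the same gene did not vary together. Among the 28 pairs of PYGM probes the correlation over 14 pigs ran from -0.82 to 0.68 with a median of -0.085, and 11 pairs were positive. Pairs of different member genes had a median of -0.033 over 76 pairs. PYGM probes 6519, 7650 and 8080 formed the most alike group, with 0.68, 0.63 and 0.53, while probes 7227 and 7650 ran opposite ways at -0.82. Normal replicate 1 was the highest normal pig for probes 6519, 7650 and 8080 (3.78, 2.56 and 2.17). How far their likeness rests on that pig was not tested. When a PYGM probe was read in the left part and another in the right part, the median was -0.043 over 56 ordered pairs. The gene names come from an old annotation of the platform. Each value above is therefore that of the probe listed for a gene, and whether names and rows are aligned was not tested here.

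**Figure D4:**
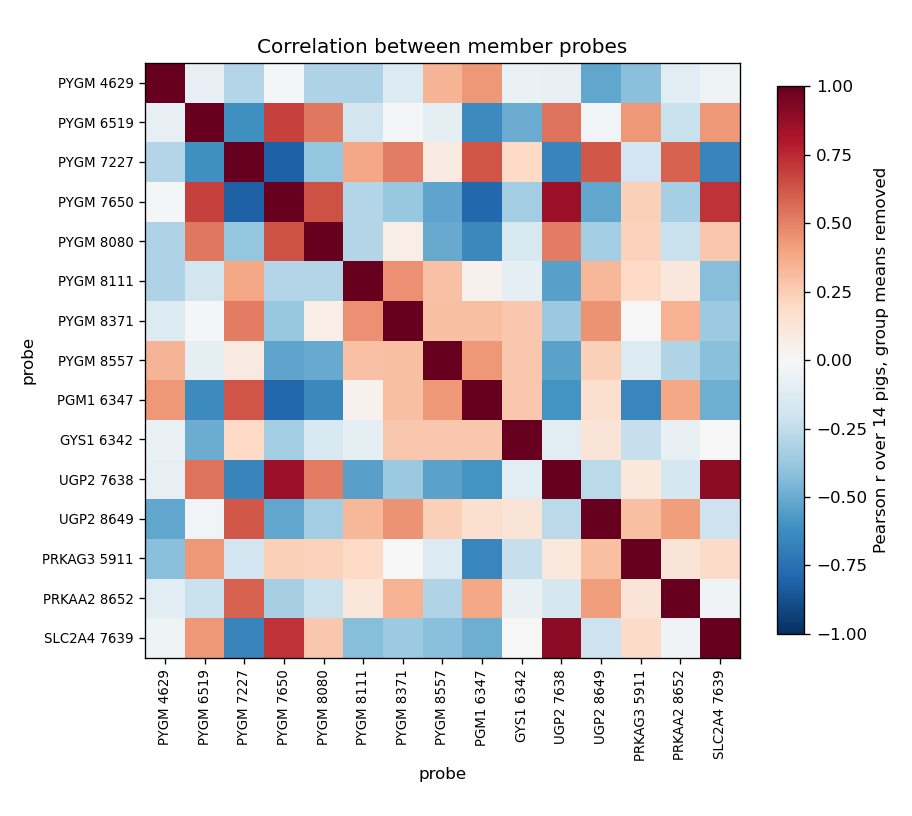
Pearson correlation between member probes over the 14 pigs, after subtracting the mean of each group (colour scale from -1 to 1), with the probes in the same order on both axes. The upper left block of 8 PYGM probes holds both signs, and the strongest positive pair off the diagonal is UGP2 7638 with SLC2A4 7639, at 0.89.

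Some members varied together with the probes beside them in the table. UGP2 probe 7638 and SLC2A4 probe 7639 follow each other in the table, which repeats in rows of 12, and PYGM probe 7650 lies directly below probe 7638. Over the 14 pigs, probes 7638 and 7639 correlated at 0.89 (Spearman 0.91) and probes 7638 and 7650 at 0.85 (Spearman 0.60). Without normal replicate 1 these were 0.90 and 0.73, and 0.85 and 0.90 with the right part of normal replicate 3 left out. PRKAG3 probe 5911 correlated at 0.75 with the probe just before it, 5910, which is listed for PRKAG1, another regulatory subunit of AMPK. Normal replicate 3 was low in both (-0.067 and 2.86). Without the 2 pigs farthest from the median of the first probe of each pair, the values were 0.87, 0.62 and 0.66.

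**Figure D5:**
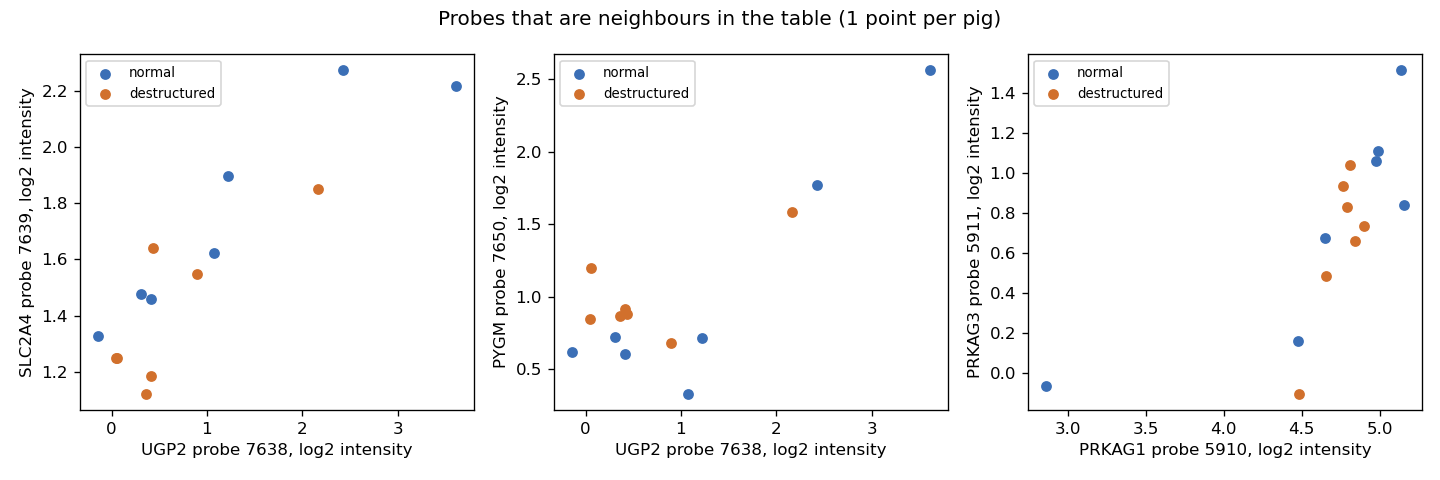
Log2 intensity of pairs of probes that are neighbours in the table, 1 point per pig: UGP2 7638 with SLC2A4 7639 and with PYGM 7650, and PRKAG1 5910 with PRKAG3 5911. Normal replicates 1 and 2 and destructured replicate 1 are high in both probes of the first 2 pairs, and normal replicate 3 lies apart at 2.86 for PRKAG1.

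Neighbours in the table were alike in general. For the 58 comparisons of a member with the probe before, after, above or below it, the median correlation was 0.47 and 25 exceeded 0.5. These were 43.1%, against 33.2% of all row neighbours and 33.4% of all probes directly below each other. Neighbours that are both members, probes 7638 and 7639 and probes 7638 and 7650, were counted once from each side. Over all probes the median was 0.34 for probes next to each other in a table row and 0.35 for probes directly below each other, while it was -0.00069 over all pairs of probes. For probes of the same table column 36 rows apart the median was 0.16, so part of the likeness was not particular to neighbours. When the member was read in the left part and its neighbour in the right part, the median was 0.11, and for all row neighbours it was 0.053. Across the parts, probes 7638 and 7639 were at 0.62 and probes 5911 and 5910 at 0.16. What makes neighbours alike was not tested.

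By the likeness rule, which looks for the named probe of another gene that follows a member's brightest probe most closely over the 14 pigs, UGP2 and SLC2A4 pointed to each other and PRKAG3 pointed to PRKAG1, as above. PGM1 was most like probe 5475 of MYLPF, a fast myosin light chain (0.88). PRKAA2 was most like probe 6546 of CKM, the muscle creatine kinase (0.77). GYS1 was most like probe 6921 of FLNA, an actin crosslinker (0.67), and PYGM probe 8557 most like probe 5722 of AKR1C1 (0.64). Each is the highest of many comparisons, 501 for PYGM and 508 for GYS1, and is given as a description. The next closest probe stood at 0.85 for PGM1, 0.72 for PRKAA2, 0.65 for GYS1 and 0.62 for PYGM. Left and right values of PGM1 (-0.23), PRKAA2 (-0.043) and GYS1 (-0.010) did not correlate positively over all pigs. Whether the likeness of these members to other probes reflects shared expression was not tested. PRKAA2 was at 0.34 between the parts once normal replicate 3 was dropped. Without the 2 pigs farthest from the median of the member, the correlations with the closest probes were 0.67 for PGM1, 0.67 for PRKAA2, 0.64 for GYS1 and 0.38 for PYGM. The value for GYS1 was 0.44 without the right part of normal replicate 3.

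In a wider list of 62 genes of glycogen turnover, AMPK signalling and glucose uptake, 11 genes were measured on 22 probes, the 15 members included. The list was chosen with earlier results of these data known, so a call among its genes is no independent finding. Of the 22 probes 1 was higher and 0 were lower in destructured muscle at an adjusted p under 0.05, against 0.651% of all probes called. Values were positive for 10 and negative for 12, with a median of -0.031, where 46.3% of all probes were positive. The called probe, 8694, is listed for TXNIP, which restrains glucose uptake. It ran from 2.49 through 3.23 to 3.74 in normal pigs and from 3.84 through 3.96 to 4.07 in destructured pigs. Its groups thus did not overlap, as in 1.28% of all probes (log2 fold change 0.79, SE 0.15, adjusted p = 0.0322 by limma). It passed in 11 of 28 alternatives and not, for example, with position medians removed (0.63, SE 0.14, adjusted p = 0.0780 by limma) or with that and the right part of normal replicate 3 left out (0.465, adjusted p = 0.0933). Leaving out normal replicate 2, 4 or 5, or destructured replicate 2, 3, 4, 5 or 7, put its adjusted p between 0.0528 and 0.1002, with log2 fold changes of 0.76 to 0.83. The 5 others with the smallest p in the list did not pass in the fit on all pigs. They were CALM3, a calmodulin gene (calmodulin is also a subunit of phosphorylase kinase, which activates PYGM), at 0.66 (SE 0.17, adjusted p = 0.0708), PRKAG1 at -0.38 (probe 8937, SE 0.13, adjusted p = 0.188), SLC2A4, PRKAA2 and PGM1. CALM3 passed in 5 of 28 alternatives, among them the left part alone (0.87, adjusted p = 0.0317 by limma) and the fits without normal replicate 3 (0.75, adjusted p = 0.0243) or its right part (0.76, adjusted p = 0.0110). The other 2 probes of PRKAG1 were at 0.14 and -0.071. GPI, which makes fructose 6-phosphate from the product of PGM1, had 2 probes, at 0.16 and -0.12.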

How the data were processed

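Spot intensities of 14 pigs were analysed, 7 normal and 7 destructured. Per the labels' protocols, the arrays were read on a phosphor imager and quantified with BZscan. The deposited intensities are linear, from 0.0393 to 443.3, with 28 columns and 0 missing values. Background correction, scaling and division by the earlier signal of a common oligonucleotide are not given in the sources used here. Intensities were taken to log2, the columns (medians 1.69 to 3.67) quantile normalized and the 2 parts averaged per pig, since they are not replicates. Groups were compared with limma 3.58.1 in R 4.3.3 (lmFit, eBayes, group only, no filter) over all 4608 probes at an adjusted p of 0.05. The fit was checked on simulated data. The number of arrays limits the precision. The sources used here do not say how the pigs were raised or sampled, so how far the results hold for other pigs is not known. The p-values compare group means against the spread within groups and take the pigs as independent. As each pig had its own array, that spread joins differences between pigs with those between arrays. Members, gene lists and alternatives were chosen with earlier results of these data known. All member probes are named; the wider list names called genes and then the 5 smallest p. All 7 gene identifiers were found in RefSeq. Figures used matplotlib 3.10.9 in Python 3.11.15.

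Position medians are those of each of the 72 positions that repeat in the table, removed per column. Other alternatives were the scaling, dim probes (25% and 50%), each part, variances, array weights, an offset of 1, the threshold, the shared pig number, each pig, array brightness, the exact test and the probe summary.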

Additional observations from a re-analysis of the deposited data

Results flagged for a closer look

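A pig stood apart from the other 6 of its group where the distance to its nearest neighbour took up more of the whole range than Dixon's 95% critical value allows. This occurred in 5 of 30 groups of the member probes (16.7%) and in 14.3% of the 9216 groups over all probes, where chance gives about 1 in 20 for independent values. The groups share the same pigs. Normal replicate 1 was the highest normal pig for PYGM probe 8080 (log2 intensity 2.17, the next 1.47) and the lowest for PYGM probe 8557 (2.56, the next 3.62). Destructured replicate 3 was the highest of its group for PGM1 (1.40, the next 0.92), destructured replicate 2 for GYS1 (2.17, the next 1.91) and destructured replicate 1 for UGP2 probe 7638 (2.17, the next 0.90).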

How the results depend on the processing

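In 29 alternatives no member probe was called, with 12 and 5 of 15 members left to test without the dimmest 25% and 50%. Wherever tested, SLC2A4 (-0.51 to -0.14), PRKAA2 (-0.37 to -0.055), PGM1 (-0.42 to -0.020) and UGP2 7638 (-1.20 to -0.26) kept a negative sign. At an unadjusted limma p under 0.05, SLC2A4 stood in 8 of its 28 alternatives, PGM1 in 2 of 27, and UGP2 7638 and PRKAA2 in 1 of 27 each. The other members stood there in none, and 13% of all probes did in the fit on all pigs. With 7 pigs a group, differences inside the intervals given are not resolved. No paired analysis was possible because the labels' replicate numbers mark array parts and the groups share 1 pig number.

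The 30 probes called in all (25 higher) became 2 (1 higher) on the deposited scale and 6 (2 higher) with median centring, 49 and 56 without the dimmest 25% and 50%, 13 and 1 in the left and right part, 6 with trend and robust variances, 129 with array weights, 53 with the offset, 111 at 0.10, 3 without the shared pig number, 135 without the right part of normal replicate 3, 5 with position medians removed, 17 with both and 1 with brightness, and 2 to 84 without 1 pig. The 1 call in the wider list became 2 with array weights, at 0.10 and without that right part, and 0 on the deposited scale, with median centring, in the right part, with trend and robust variances, without the shared pig number, with position medians removed or with brightness (0 to 2 without 1 pig). In the left part and with both changes the 1 call was CALM3, not TXNIP. The deposited scale moved the median of all probes to 0.21, and 11 members were positive there, against 81.9% of all probes.

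Signs turned as follows, and the causes were not tested. On the deposited scale PYGM 4629, 7650 and 8371 were at 0.23, 0.14 and 0.28, UGP2 8649 at 0.11 and PRKAG3 at 0.15; with median centring PYGM 4629 and 8371 were at 0.018 and 0.064. The left part gave 0.030 (4629), -0.10 (8111) and -0.078 (GYS1), and the right part 0.27 (7650) and -0.037 (8557). Array weights gave 0.020 (7650) and -0.12 (8111). Without the shared pig number came -0.016 (7227), 0.095 (7650), -0.019 (8111) and 0.15 (PRKAG3). Without the right part of normal replicate 3 came 0.011 (4629), -0.033 (6519) and -0.095 (8111). Position medians removed gave 0.028 (4629), -0.12 (6519), -0.0067 (7227), -0.094 (8080) and -0.039 (GYS1), and with both changes 0.032, -0.23, -0.077, -0.11 and -0.066. With brightness came 0.0023 (4629), -0.083 (6519), -0.11 (8080) and 0.12 (8371). Without 1 pig the ranges were -0.16 to 0.013 (4629), -0.033 to 0.11 (7227), -0.17 to 0.20 (7650), -0.11 to 0.16 (8111), -0.080 to 0.068 (8371), -0.021 to 0.081 (GYS1) and -0.24 to 0.025 (PRKAG3).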
